A study of Mus musculus with 6 samples.

Results

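Collagens are the main structural proteins of the scar that replaces dead myocardium after myocardial infarction (MI). Each collagen is a triple helix of alpha chains encoded by separate Col genes. Fibrillar collagens form the tensile fibres of the scar, type IV collagen forms the sheet-like network of basement membranes around cardiomyocytes and vessels, and other types decorate fibrils, build beaded filaments or span the cell membrane. In the healing heart, fibroblasts and the myofibroblasts derived from them are the main source of fibrillar collagen, with types I and III the most abundant. Before a fibril can form, the chains are hydroxylated and folded in the endoplasmic reticulum, trimmed outside the cell and crosslinked by lysyl oxidases.

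The collagen genes were taken as the protein-coding rows of the table whose symbol is Col, a number, a and a number, which gave 44 of the 54532 listed genes. They were grouped as 11 fibrillar genes (types I, II, III, V, XI, XXIV and XXVII), 6 type IV genes and 27 other genes. The study sequenced RNA of the infarct and its border from the hearts of 3 WT and 3 Crlf2-/- mice of the C57BL/6 strain, collected on day 7 after the left anterior descending coronary artery had been ligated. The study's methods describe adult male mice and a permanent ligation, with the WT mice bought from a breeder and the Crlf2-/- mice made by another company on a C57BL/6J background. Crlf2 encodes the chain of the receptor for the cytokine thymic stromal lymphopoietin that binds it, and no source used here limits the knockout to a cell type. All 6 hearts were infarcted and none was sham-operated, so the values describe the healing heart and not its response to MI. The question addressed here is whether collagen transcripts at the time of scar formation differed between the genotypes.

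Between 18508646 and 19682428 fragments per library fell on listed genes. Values below are FPKM, fragments per kilobase of gene relative to the mapped fragments of the library, after a TMM scaling of the libraries, and are given in the order replicate 1, 2 and 3. Crlf2, the targeted gene, was at 26.7, 24.8 and 21.6 in WT and at 13.3, 18.6 and 19.9 in Crlf2-/- libraries, lower in all 3 Crlf2-/- libraries but not absent (log2 fold change -0.51, standard error 0.16, limma adjusted p = 0.527). The table gives 1 value per gene and does not show whether those fragments lie in a deleted part. The tissue label held: cardiac Actc1 (477 to 1382) and the myofibroblast gene Postn (857 to 1224) were high in all 6 libraries. A protocol text among the labels speaks of retina, which neither the tissue label nor the study's methods do.

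Collagen transcripts made up 6.78% to 7.96% of all fragments on listed genes in WT and 8.05% to 8.12% in Crlf2-/- libraries. The summed level of the 44 genes averaged 7244 ± 697 FPKM among WT mice and 7914 ± 78.3 FPKM among Crlf2-/- mice (mean ± SD, n = 3 each), with a log2 ratio of 0.13 that was 0.052 without WT replicate 1. The groups did not overlap, but WT replicate 2 at 7806 lay just under the lowest Crlf2-/- library at 7831. Fibrillar genes accounted for 78.7% to 83.5% of the summed collagen FPKM in a library, type IV genes for 5.17% to 7.44% and the other genes for 11.3% to 13.8%, and these ranges of shares overlapped between the genotypes.

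**Figure D1:**
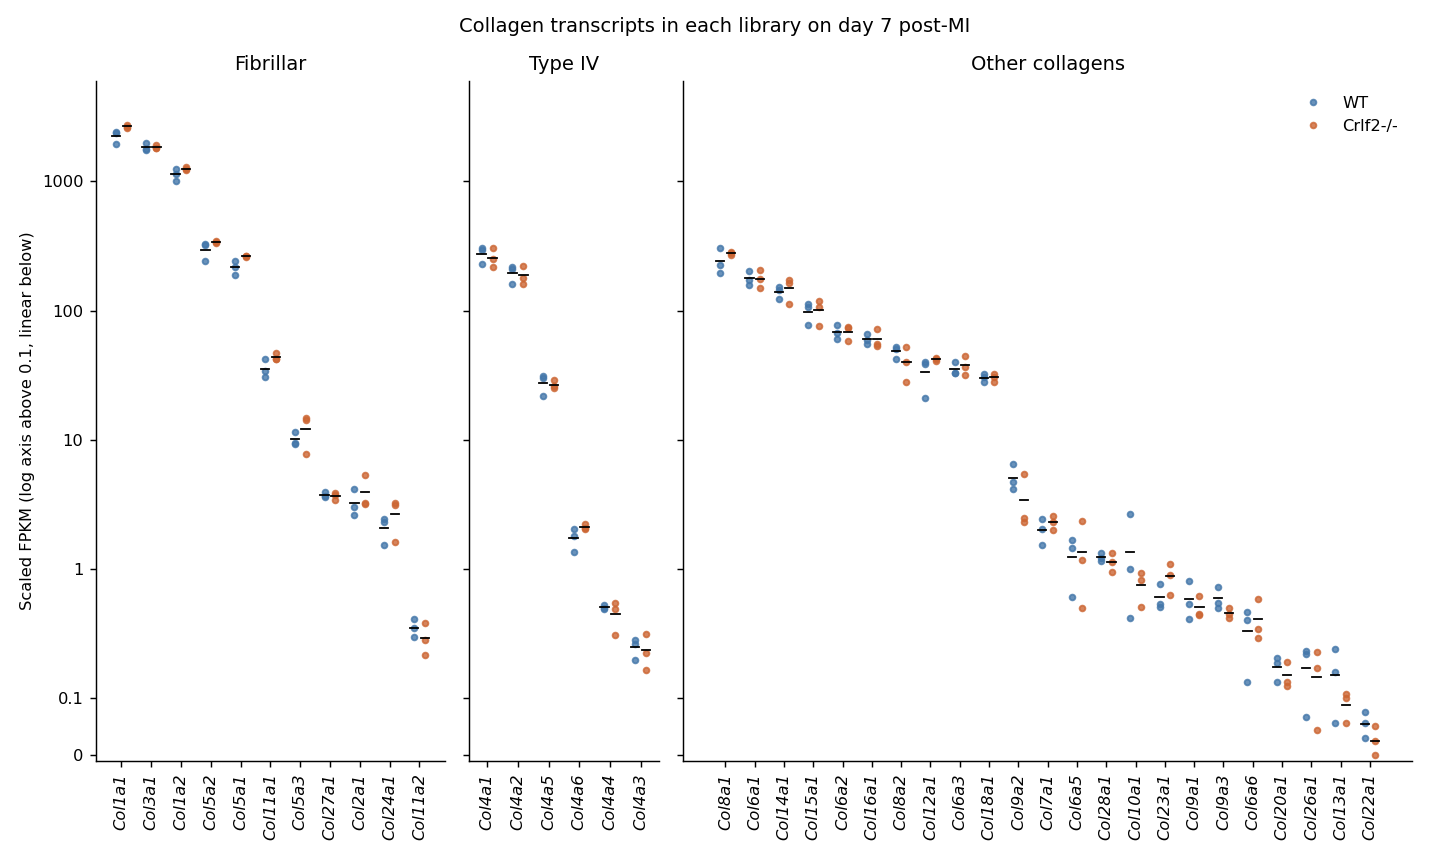
Scaled FPKM of the 40 tested collagen genes in each library, on a log axis above 0.1 and a linear axis below, in 3 panels for fibrillar, type IV and other genes ordered by level, with WT in blue, Crlf2-/- in orange and the group mean as a bar. Col1a1, Col3a1 and Col1a2 lie above 1000 FPKM in all 6 libraries, and the points of the genotypes overlap for all but 5 genes.

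The levels spanned several orders of magnitude. Col1a1, Col3a1 and Col1a2 had mean levels over 1000 FPKM and ranked 6, 10 and 19 among all listed genes. Another 7 genes lay between 100 and 1000 FPKM, 10 between 10 and 100, 9 between 1 and 10, 10 between 0.1 and 1, and 5 below 0.1. Of the 44 genes, 40 passed the filter on low genes, which asked for 10 or more fragments in 3 or more libraries and 15 in total. The others were Col25a1, Col17a1, Col6a4 and Col19a1, whose levels were at most 0.074 FPKM in any library.

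In limma with Benjamini-Hochberg adjustment over all 15520 tested genes, 0 of the 40 collagen genes passed an adjusted p of 0.05 with an absolute log2 fold change of 0.5, thresholds that 0.0129% of all tested genes passed. The study tested its counts with DESeq2 at the same thresholds and reported a longer list of genes, so these counts of calls hold for limma only. At an unadjusted p under 0.05 there was 1 collagen gene, Col5a1, against 6.55% of all tested genes. With limma's voom on the fragments the count of calls was also 0, with Col5a1 and Col11a1 under an unadjusted 0.05. Of the 40 genes, 20 had a higher and 20 a lower mean in Crlf2-/- hearts, where 50.0% of all tested genes were higher. Their median log2 fold change was -0.00048, and single genes ranged from -0.65 for Col9a2 to 0.46 for Col23a1. The groups of 3 did not overlap for 5 collagen genes, where 11.7% of all tested genes showed no overlap. Col1a1, Col5a1, Col5a2 and Col12a1 were higher in every Crlf2-/- library (5.57% of all tested genes) and Col9a3 was lower (6.15%). For such a gene an exact two-sided permutation test of 3 against 3 gives p = 0.1, the smallest it can give.

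**Figure D2:**
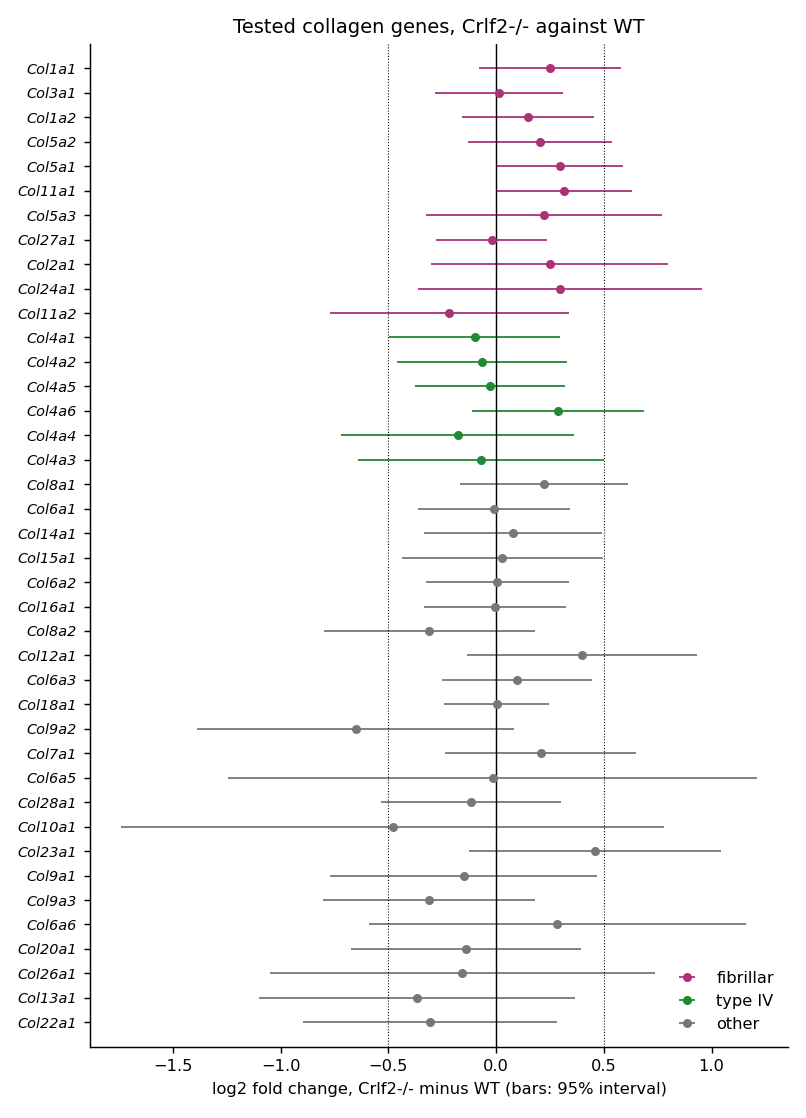
The log2 fold change of each of the 40 tested collagen genes, Crlf2-/- minus WT, with its 95% interval from limma; genes are ordered by level within the fibrillar, type IV and other groups, and dotted lines mark 0.5 in either direction. Most fibrillar points lie right of 0, most type IV points lie just left of it, and 39 of the 40 intervals reach across 0, with that of Col5a1 just above it.

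The fibrillar genes had higher means in Crlf2-/- hearts in 9 of 11 cases, with a median log2 fold change of 0.22 and a range from -0.22 (Col11a2) to 0.31 (Col11a1). None of them passed the adjusted threshold, and 1 of 11 had an unadjusted p under 0.05, against 3.31% of all tested genes in that direction and 3.24% in the other. The count of 9 was the same with each of the other scalings. It was 8 without WT replicate 1 or without Crlf2-/- replicate 1, with medians of 0.098 and 0.157. Without Crlf2-/- replicate 2 it was 10, with a median of 0.150. Of all tested genes, 50.0% were higher. The summed fibrillar level was 5244, 6273 and 5873 FPKM in WT and 6437, 6540 and 6360 FPKM in Crlf2-/- libraries. All 3 Crlf2-/- libraries were above all 3 WT libraries, and the log2 ratio of the means was 0.15 with all libraries and 0.086 without WT replicate 1.

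Col1a1 and Col1a2 encode the chains of type I collagen, which gives the mature scar its stiffness. Col1a1 (chr11:94936224-94953042, plus strand, GRCm38) was at 1955, 2426 and 2376 FPKM in WT and at 2602, 2752 and 2649 FPKM in Crlf2-/- hearts. Every Crlf2-/- value lay above every WT value, and WT replicate 1 was the lowest of the 6. The log2 fold change was 0.25 (standard error 0.14, 95% interval -0.079 to 0.58), with a limma adjusted p of 0.863, and was 0.15 without WT replicate 1. Col1a2 (chr6:4504814-4541544, plus strand) was at 1016, 1242 and 1145 FPKM in WT and at 1239, 1294 and 1227 FPKM in Crlf2-/- hearts. Here WT replicate 2 lay within the Crlf2-/- range, and the log2 fold change was 0.15 (standard error 0.13, limma adjusted p = 0.961), and 0.067 without WT replicate 1.

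Col3a1 encodes the chain of type III collagen, which forms thinner and more pliable fibrils and is prominent in early granulation tissue. It lies on chr1:45311538-45349706 (plus strand), and the gene for the type V chain Col5a2 follows it tail to tail on the other strand at a distance of 24614 bases. Col3a1 was at 1791, 1980 and 1755 FPKM in WT and at 1927, 1823 and 1814 FPKM in Crlf2-/- hearts. The groups overlapped throughout, and the log2 fold change of 0.01 (standard error 0.13, 95% interval -0.29 to 0.31) turned negative without WT replicate 1, without WT replicate 3 or without Crlf2-/- replicate 1, at -0.012, -0.022 and -0.016. The order of the 3 leading genes depends on the gene length. The table divides by all exonic bases of a gene, 12426 for Col1a2 against 5348 in its longest coding transcript. Over the longest coding transcript, Col3a1 was at 3249 ± 213 FPKM (SD, n = 3) in WT, Col1a2 at 2636 ± 264 and Col1a1 at 2493 ± 286. On that scale Col1a1 and Col1a2 differed by less than their spread between WT mice.

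Types V and XI are minor fibrillar collagens that co-assemble with the major fibrillar types and limit fibril diameter. Col5a1 was at 190, 242 and 216 FPKM in WT and at 262, 266 and 263 FPKM in Crlf2-/- hearts. The 3 Crlf2-/- libraries lay close together (CV 0.873%) and above every WT library (CV 12.1%). The log2 fold change was 0.29 (standard error 0.13, 95% interval 0.0026 to 0.59), with an unadjusted p of 0.0484 and a limma adjusted p of 0.753. Col5a2 was at 243, 327 and 321 FPKM in WT and at 340, 332 and 346 FPKM in Crlf2-/- hearts. WT replicate 1 stood far below the other 5, and without it the log2 fold change of 0.20 was 0.062. Col5a3 was at 9.20, 11.5 and 9.47 FPKM in WT and at 14.2, 14.6 and 7.74 FPKM in Crlf2-/- hearts, so the highest and the lowest value both came from Crlf2-/- mice. Col11a1 was at 30.4, 33.9 and 42.1 FPKM in WT and at 42.4, 47.1 and 41.9 FPKM in Crlf2-/- hearts. Only WT replicate 3 reached the Crlf2-/- range, and the log2 fold change was 0.31 (standard error 0.14, limma adjusted p = 0.765), and 0.21 without WT replicate 1.

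The remaining fibrillar genes were weakly expressed. Col2a1, the main collagen of cartilage, lay between 2.59 and 5.35 FPKM, Col24a1 between 1.52 and 3.22, Col27a1 between 3.43 and 3.93 and Col11a2 between 0.213 and 0.408. In each of them the genotypes overlapped. Col27a1 was the steadiest, with a log2 fold change of -0.02 and a 95% interval from -0.28 to 0.24.

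The 120 bases before the annotated start are shown for Col3a1, the leading fibrillar gene with such a stretch free of annotated exons, and for Col5a1 and Col11a1, the fibrillar genes with the smallest unadjusted p. They come from RefSeq (GRCm38.p6), which gave windows for 35 of the 44 genes and none for Col1a1. Capitals mark matches to TATAAA, to the CCAAT box or to the GC box GGGCGG on either strand, and none of the matches shown overlaps another.
Col3a1, chr1:45311418-45311537, plus strand: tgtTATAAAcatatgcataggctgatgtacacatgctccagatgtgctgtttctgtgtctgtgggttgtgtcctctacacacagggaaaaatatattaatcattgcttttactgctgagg
Col5a1, chr2:27886305-27886424, plus strand: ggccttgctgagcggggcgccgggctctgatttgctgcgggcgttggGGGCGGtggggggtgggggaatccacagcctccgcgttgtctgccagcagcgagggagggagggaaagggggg
Col11a1, chr3:114030420-114030539, plus strand: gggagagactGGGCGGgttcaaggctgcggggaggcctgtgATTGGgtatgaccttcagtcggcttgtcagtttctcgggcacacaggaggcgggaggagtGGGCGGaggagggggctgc
The Col3a1 stretch holds a TATAAA that starts 117 bases before the annotated start and none of the other motifs. Col5a1 and Col11a1 hold 1 and 2 copies of GGGCGG, and Col11a1 also holds CCAAT on the minus strand. Among 32851 RefSeq promoters, 26.5% held GGGCGG in a stretch of this length, 21.3% CCAAT and 6.34% TATAAA, and among the 38 collagen windows these shares were 47.4%, 15.8% and 7.89%. These are matches of letters only.

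Type IV collagen showed the other direction in its means, but by little. Of its 6 genes, 1 had a higher and 5 a lower mean in Crlf2-/- hearts, with a median log2 fold change of -0.068 and 0 calls by limma or voom, and none had an unadjusted p under 0.05. Without Crlf2-/- replicate 2 the split was 5 higher and 1 lower and the median 0.018, and without WT replicate 3 it was 3 and 3. It was 2 and 4 without WT replicate 2 or without Crlf2-/- replicate 1. The summed level averaged 501 ± 78.0 FPKM among WT and 473 ± 78.2 FPKM among Crlf2-/- mice (mean ± SD, n = 3 each), a difference smaller than the spread within either group.

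Col4a1 and Col4a2 encode the chains of the type IV network found in nearly every basement membrane. They lie head to head on chromosome 8, Col4a1 at chr8:11198423-11312826 on the minus strand and Col4a2 at chr8:11312805-11449287 on the plus strand, and share 22 bases at their starts. Col4a1 was at 228, 294 and 303 FPKM in WT and at 250, 216 and 305 FPKM in Crlf2-/- hearts. Col4a2 followed it library by library, with 160, 209 and 219 FPKM in WT and 179, 161 and 221 FPKM in Crlf2-/- hearts. In both genes WT replicate 1 and Crlf2-/- replicate 2 were low and replicate 3 of either genotype was high. Their log2 fold changes were -0.10 (standard error 0.17) and -0.07 (standard error 0.17), with limma adjusted p of 0.996 for each. Without Crlf2-/- replicate 2 they were 0.019 and 0.036.

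Col4a3, Col4a4 and Col4a5 encode the chains known from the kidney's filter, and Col4a5 with Col4a6 forms the network of smooth muscle basement membranes. Col4a5 was at 21.6, 30.0 and 31.0 FPKM in WT and at 25.8, 25.3 and 28.9 FPKM in Crlf2-/- hearts. Col4a6 was at 1.35, 2.03 and 1.78 FPKM in WT and at 2.22, 2.02 and 2.06 FPKM in Crlf2-/- hearts, with a log2 fold change of 0.29 (standard error 0.17, limma adjusted p = 0.882) that was 0.13 without WT replicate 1. WT replicate 2 lay inside the Crlf2-/- range of Col4a6. Col4a3 lay between 0.164 and 0.313 FPKM and Col4a4 between 0.305 and 0.538 FPKM, and the genotypes overlapped in both. They also lie head to head, 71 bases apart on chromosome 1.

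Col4a6 and Col4a5 are another head-to-head arrangement, 1308 bases apart on chromosome X. The 120 bases before the start of Col4a6 are shown because the ratio of these neighbours, given with the other ratios, did not overlap between the genotypes.
Col4a6, chrX:141474077-141474196, minus strand: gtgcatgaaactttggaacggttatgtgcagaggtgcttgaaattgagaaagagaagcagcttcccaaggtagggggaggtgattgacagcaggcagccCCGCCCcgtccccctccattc
The capitals mark GGGCGG on the other strand, 21 bases before the start.

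The other collagens were led by type VIII, a short-chain collagen of vascular and subendothelial matrix. Col8a1 was at 196, 225 and 305 FPKM in WT and at 269, 280 and 282 FPKM in Crlf2-/- hearts. The Crlf2-/- values lay within the wide WT range, and the log2 fold change was 0.22 (standard error 0.17, limma adjusted p = 0.943). It was 0.077 without WT replicate 1 and 0.40 without WT replicate 3. Its partner Col8a2 was at 42.4, 52.3 and 50.5 FPKM in WT and at 28.1, 39.9 and 52.2 FPKM in Crlf2-/- hearts, with a log2 fold change of -0.31 (standard error 0.21, limma adjusted p = 0.925). Col10a1, the related collagen of hypertrophic cartilage, ranged from 0.418 to 2.65 FPKM within WT alone.

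Type VI collagen forms beaded filaments close to the cell surface. Col6a1 was at 159, 202 and 173 FPKM in WT and at 205, 151 and 176 FPKM in Crlf2-/- hearts. Col6a2 was at 60.2, 77.3 and 67.1 FPKM in WT and at 74.6, 58.0 and 73.2 FPKM in Crlf2-/- hearts, and Col6a3 lay between 31.5 and 44.7 FPKM. The log2 fold changes of Col6a1, Col6a2 and Col6a3 were -0.01, 0.01 and 0.10, each with a standard error of 0.15. Crlf2-/- replicate 2 was the lowest library in all 3 genes. Without that library the log2 fold changes of Col6a1 and Col6a2 were 0.10 and 0.12, and without WT replicate 1 they were -0.094 and -0.085. Col6a5 lay between 0.497 and 2.34 FPKM and Col6a6 between 0.133 and 0.585 FPKM, with the genotypes mixed. Col28a1 and Col26a1, grouped as beaded filament or related, lay between 0.95 and 1.33 FPKM and between 0.0445 and 0.229 FPKM. Their log2 fold changes were -0.12 and -0.16, and the genotypes overlapped in both.

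The fibril-associated collagens attach to the surface of fibrils. Col12a1, a type known from tendon and other tissues under tension, was at 20.9, 38.2 and 40.2 FPKM in WT and at 42.6, 42.4 and 40.8 FPKM in Crlf2-/- hearts. All Crlf2-/- values were above all WT values, but WT replicate 1 lay far below the other 5 libraries, and without it the log2 fold change of 0.40 (standard error 0.23, limma adjusted p = 0.875) was 0.092. Col14a1 was at 123, 144 and 153 FPKM in WT and at 164, 113 and 171 FPKM in Crlf2-/- hearts. Col16a1 was at 55.5, 65.5 and 59.1 FPKM in WT and at 53.2, 55.5 and 72.2 FPKM in Crlf2-/- hearts. Their log2 fold changes were 0.08 and -0.0035, and the genotypes overlapped in both. The type IX genes, partners of type II collagen in cartilage, were all low. Col9a3 was at 0.724, 0.544 and 0.499 FPKM in WT and at 0.413, 0.443 and 0.497 FPKM in Crlf2-/- hearts. The groups did not overlap, though the WT replicate 3 and Crlf2-/- replicate 3 values were nearly equal, and the log2 fold change was -0.31 (standard error 0.21, limma adjusted p = 0.925), or -0.18 without WT replicate 1. Col9a2 was at 6.44, 4.70 and 4.11 FPKM in WT and at 2.47, 2.32 and 5.40 FPKM in Crlf2-/- hearts, so Crlf2-/- replicate 3 lay inside the WT range. Col9a1, Col20a1 and Col22a1 were all below 1 FPKM in every library.

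Types XV and XVIII lie at the junction of basement membranes and the stroma. Col15a1 was at 76.9, 112 and 106 FPKM in WT and at 107, 76.4 and 118 FPKM in Crlf2-/- hearts, with a log2 fold change of 0.03 (standard error 0.20) that was -0.14 without WT replicate 1. Col18a1, the source of endostatin, varied little. It lay between 27.9 and 32.4 FPKM in all 6 libraries, with a log2 fold change of 0.0025 and a 95% interval from -0.24 to 0.25. Col7a1, of anchoring fibrils, lay between 1.51 and 2.56 FPKM. The transmembrane types were low: Col23a1 was at 0.532, 0.509 and 0.766 FPKM in WT and 0.626, 1.09 and 0.901 FPKM in Crlf2-/- hearts, and Col13a1 did not exceed 0.238 FPKM. Over all 23 tested genes outside the fibrillar and type IV groups, 10 had a higher and 13 a lower mean, with a median log2 fold change of -0.010.

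**Figure D3:**
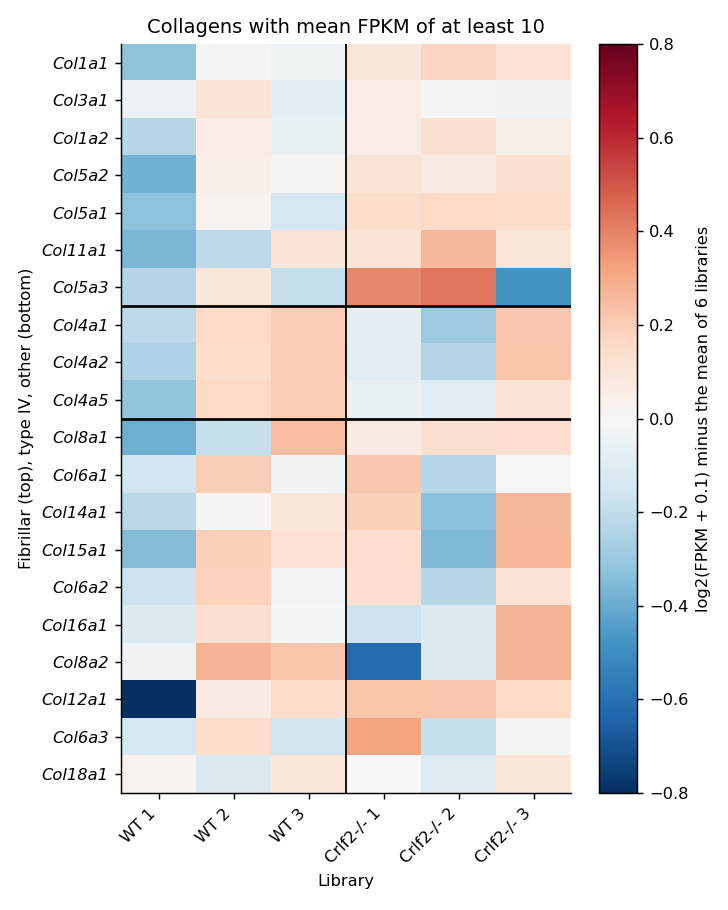
For the 20 collagen genes with a mean of at least 10 FPKM, the colour gives log2(FPKM + 0.1) in a library minus the mean of the 6 libraries, with fibrillar genes on top, type IV in the middle and other genes below. WT replicate 1 is blue in most rows, and Crlf2-/- replicate 2 is red in the fibrillar rows other than Col3a1 and blue in type IV and most other rows.

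Among the 20 genes with a mean of at least 10 FPKM, a few libraries stood at the ends of many genes. WT replicate 1 was the lowest library for 9 of the 20 genes and for 5 of the 7 fibrillar genes, with a median log2 deviation of -0.23 from the mean of the 6 libraries. Crlf2-/- replicate 2 was the highest library for 5 of the 7 fibrillar genes. The same library was the lowest for 5 of the 10 genes outside the fibrillar and type IV groups, such as the type VI and XV genes.

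Ratios within a library do not depend on the scaling between libraries. The ratios were not tested, and among single genes 11.7% of all tested genes showed no overlap between the groups. The ratio of Col1a1 to Col1a2 was 1.92, 1.95 and 2.08 in WT and 2.10, 2.13 and 2.16 in Crlf2-/- hearts, without overlap. Over the longest coding transcripts the same ratios ran from 0.916 to 1.03. The ratio of Col3a1 to Col1a1 was 0.916, 0.816 and 0.738 in WT and 0.741, 0.662 and 0.685 in Crlf2-/- hearts, where WT replicate 3 lay just below the highest Crlf2-/- value. The ratio of Col4a1 to Col4a2 stayed between 1.34 and 1.43 in the 6 libraries (CV 2.10%), although the highest library was 1.42-fold the lowest for Col4a1 and 1.39-fold for Col4a2. Col5a1 kept to between 0.0908 and 0.101 of Col1a1 (CV 3.70%), and Col8a1 to between 0.0929 and 0.128. Summed type IV over summed fibrillar FPKM averaged 0.0861 ± 0.0080 in WT and 0.0736 ± 0.0132 in Crlf2-/- hearts (mean ± SD, n = 3 each), with overlap.

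**Figure D4:**
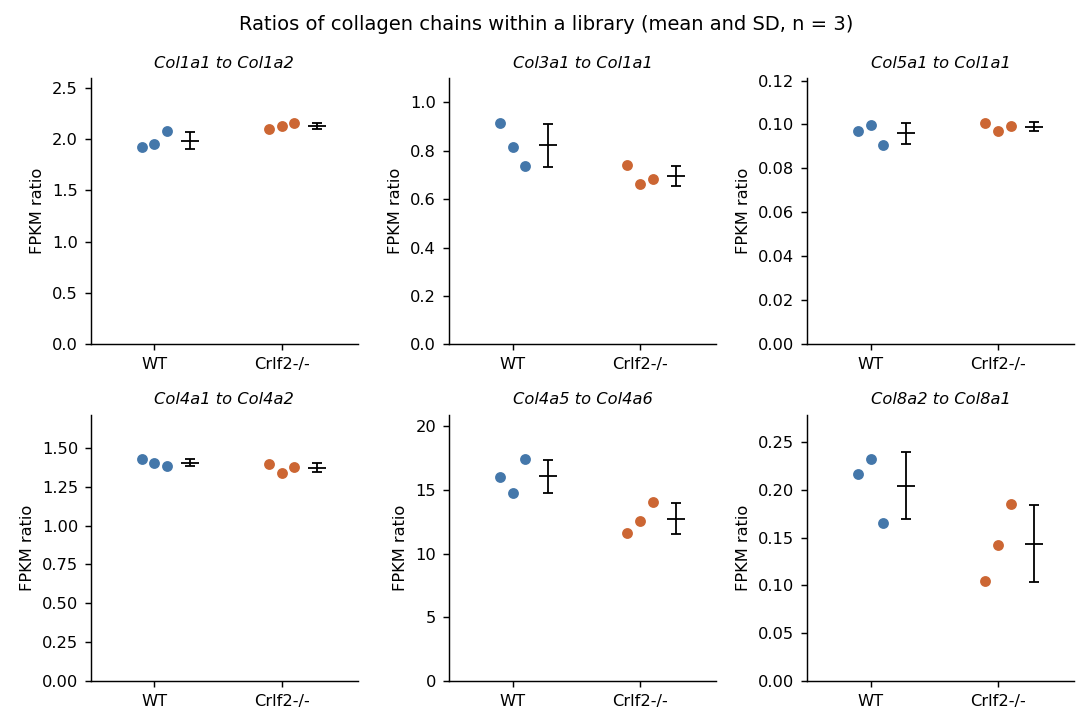
Ratios of FPKM between collagen genes in each library, WT in blue and Crlf2-/- in orange in replicate order, with the mean and SD of 3 libraries beside them and every axis starting at 0. The ratios of Col1a1 to Col1a2 and of Col4a5 to Col4a6 do not overlap between the genotypes, and the ratio of Col4a1 to Col4a2 is nearly flat. The ratios were not tested.

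Further ratios between partner chains were worked out after the levels had been seen and are given as values. Col4a5 to Col4a6 was 16.0, 14.8 and 17.4 in WT and 11.6, 12.5 and 14.1 in Crlf2-/- hearts, lower in all 3 Crlf2-/- libraries, and its log2 ratio of means lay between -0.41 and -0.27 with any library left out. Col6a3 to Col6a1 was 0.206, 0.196 and 0.188 in WT and 0.219, 0.209 and 0.208 in Crlf2-/- hearts, higher by a small step in each. Col8a2 to Col8a1 was 0.216, 0.232 and 0.166 in WT and 0.104, 0.142 and 0.185 in Crlf2-/- hearts, with overlap. Col5a1 to Col5a2, Col6a1 to Col6a2, Col4a3 to Col4a4, Col9a2 to Col9a3 and Col12a1 to Col14a1 also overlapped between the genotypes.

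The enzymes and chaperones that make, trim and crosslink collagen had means above WT in 29 of 30 tested genes, but by small steps. Their median log2 fold change was 0.12, and 0 passed the adjusted threshold. The count of 29 was the same under each scaling and lay between 23 and 28 with a library left out, with 23 without Crlf2-/- replicate 3 and 24 without WT replicate 1. An unadjusted p under 0.05 was reached by 5 genes, all with higher means, where 3.31% of all tested genes did so. Without WT replicate 1, WT replicate 3 or Crlf2-/- replicate 2 they were 2, Loxl2 and Adamts14. Loxl2, a lysyl oxidase that crosslinks fibrils, was at 57.7, 71.3 and 59.2 FPKM in WT and at 111, 84.8 and 87.0 FPKM in Crlf2-/- hearts, without overlap (log2 fold change 0.58, standard error 0.15, limma adjusted p = 0.328). Bmp1, which trims the end of procollagen, was at 45.8, 52.7 and 47.7 FPKM in WT and at 57.6, 65.7 and 56.7 FPKM in Crlf2-/- hearts (log2 fold change 0.30, limma adjusted p = 0.660). P3h1 and P3h4, of the prolyl 3-hydroxylase complex, and the procollagen peptidase Adamts14 had log2 fold changes of 0.25, 0.28 and 0.39. The most abundant members had smaller log2 fold changes, 0.09 for the collagen chaperone Serpinh1, 0.13 for the lysyl oxidase Lox and 0.13 for P4hb, a subunit of prolyl 4-hydroxylase.

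Collagen receptors, the collagen-degrading enzymes and the partners of type IV collagen had medians near 0. Of the receptors, 6 of 9 tested genes were higher, with a median of 0.051 (3 of them without WT replicate 1), and Itgb1, the shared chain of the collagen-binding integrins, had a log2 fold change of 0.03. The collagen uptake receptor Mrc2 and the integrin chain Itga11 were at 0.08 and -0.08. Of the enzymes of collagen breakdown, 6 of 10 were higher. Mmp3, a stromelysin, was at 3.44, 3.29 and 2.79 FPKM in WT and at 1.56, 1.92 and 1.21 FPKM in Crlf2-/- hearts, lower in all 3 (log2 fold change -0.99, standard error 0.18, limma adjusted p = 0.162). The lysosomal protease Ctsb, the gelatinase Mmp2 and the membrane-bound Mmp14, the most abundant of them, had log2 fold changes of 0.01, 0.0014 and 0.19. Of 16 laminins, nidogens and other partners of type IV collagen, 10 were higher, with a median of 0.039 (4 without WT replicate 1 and 6 without Crlf2-/- replicate 3), and Lama1 at under 0.2 FPKM was the gene with an unadjusted p under 0.05 (0.70). The most abundant were Nid1, Lamc1 and Hspg2, a nidogen, a laminin chain and perlecan, at 0.03, 0.03 and 0.05. Of 15 tested fibril-associated proteoglycans and matrix glycoproteins, 5 were higher, with a median of -0.098. Without WT replicate 3 the count was 8 and the median 0.042, and without WT replicate 1 they were 3 and -0.179. Sparc, Bgn and Fn1, the most abundant, had log2 fold changes of 0.04, -0.03 and 0.20. Tnc was at 42.8, 77.3 and 52.6 FPKM in WT and at 109, 77.5 and 75.7 FPKM in Crlf2-/- hearts (0.62), and Prelp at 46.1, 56.0 and 69.5 against 41.2, 40.2 and 47.6 (-0.39).

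Levels of marker genes for the cells that make collagen and for other cells are given beside these values, and in bulk tissue fewer cells of a type cannot be told apart from less RNA per cell. None of the marker genes passed the adjusted limma threshold. The marker lists are not separate from the lists above: they share Dpt, Comp and Fmod with the fibril-associated list and Fap with the collagen breakdown list. Of 8 markers of activated fibroblasts, 7 had a higher mean in Crlf2-/- hearts (median log2 fold change 0.22, and 0.107 without WT replicate 1), and their summed level ran from 1905 to 2428 FPKM in WT and from 2465 to 2685 in Crlf2-/- hearts. Acta2, the actin of myofibroblasts, was at 517, 617 and 495 FPKM in WT and at 689, 723 and 649 FPKM in Crlf2-/- hearts, without overlap (log2 fold change 0.34, limma adjusted p = 0.690). Postn and Cthrc1, the other abundant members, had log2 fold changes of 0.15 and 0.25, and that of the transcription factor Runx1 was 0.24. Acta2 and Runx1 had an unadjusted p under 0.05, which 3.31% of all tested genes reached with a higher mean. Without WT replicate 1, WT replicate 3 or Crlf2-/- replicate 2, 0 of the 8 markers were under it. With a library left out, Runx1 stayed under it only without Crlf2-/- replicate 3. Of 7 other fibroblast markers, 6 had a lower mean (median -0.28, and -0.125 without Crlf2-/- replicate 2), with summed levels of 446 to 545 FPKM in WT and 411 to 441 in Crlf2-/- hearts. Of these, Gsn, Tcf21 and Pi16 had an unadjusted p under 0.05, with log2 fold changes of -0.29, -0.43 and -0.42, and the abundant Dpt and Mfap5 were at -0.28 and 0.05. At that p, 3.24% of all tested genes were lower. The number under it was 0 without WT replicate 2, 3 without WT replicate 3 and between these without any other library.

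All 10 cardiomyocyte markers had lower means, 9 without WT replicate 3 (median -0.87, and -1.30 to -0.58 with a library left out), with summed levels of 1062 to 2019 FPKM in WT and 687 to 1409 in Crlf2-/- hearts, and WT replicate 1, the library lowest in fibrillar collagen, was also the lowest WT library there. Myl2, Myl3, Tnni3 and Pln had an unadjusted p under 0.05, with log2 fold changes of -1.34, -1.51, -1.34 and -0.75. That p was reached with a lower mean by 3.24% of all tested genes. With a library left out, between 1 and 8 of the markers were under it. Myl2 always was, and was the only one without WT replicate 2, WT replicate 3 or Crlf2-/- replicate 2. The abundant Actc1, Mybpc3 and Tnnt2 were at -0.69, -0.62 and -0.43. All 5 red blood cell genes were lower in every Crlf2-/- library, where 6.15% of all tested genes were (median -1.29; 226 to 365 against 85.6 to 161 FPKM summed). The globin genes Hbb-bs and Hba-a1 led that list with log2 fold changes of -1.29 and -1.31, and reads of the near-identical globin copies may be split between them. Hbb-bt, Hba-a2 and Alas2 were at -1.33, -1.20 and -0.96. All 5 red blood cell genes had an unadjusted p under 0.05, which 3.24% of all tested genes reached with a lower mean.

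Of 8 endothelial markers 6 had lower means (169 to 186 against 149 to 161 FPKM summed), and 8 without WT replicate 1 and 5 without WT replicate 3. Fabp4 and Tek among them had an unadjusted p under 0.05, with log2 fold changes of -0.68 and -0.31, and the abundant Cdh5 and Pecam1 were at -0.10 and -0.19. At that p, 3.24% of all tested genes were lower. Fabp4 stayed under it with any library left out. Tek did not without WT replicate 2, WT replicate 3, Crlf2-/- replicate 1 or Crlf2-/- replicate 2. Of 8 pericyte and smooth muscle markers 4 had lower means (221 to 283 against 198 to 244 FPKM), and 2 without WT replicate 3 or without Crlf2-/- replicate 2. Rgs5, Pdgfrb and Cnn1 led them, at -0.27, -0.0025 and 0.36. Of 8 leukocyte markers 2 had lower means (1625 to 3023 against 1743 to 2567 FPKM), a count of 6 without WT replicate 3, 4 without WT replicate 2 or Crlf2-/- replicate 1 and 1 without Crlf2-/- replicate 3. One of them was the T cell gene Cd3e, at 0.491, 0.726 and 0.583 FPKM in WT and at 0.267, 0.0941 and 0.197 FPKM in Crlf2-/- hearts (log2 fold change -1.33, limma adjusted p = 0.253). The study, with its own test, listed Cd3e among the downregulated genes. The macrophage genes Lyz2, Cd68 and Adgre1 led the list by level, with log2 fold changes of -0.12, 0.08 and 0.03. Of 7 tested cartilage and matrifibrocyte markers 4 had lower means (224 to 294 against 193 to 292 FPKM), and 3 to 5 with a library left out. Chad had an unadjusted p under 0.05 (-0.72), and the abundant Comp, Fmod and Acan were at -0.30, -0.0061 and 0.13. None of the tested genes in these marker lists was at 0 in any library. Their part in the collagen values was not tested.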

How the data were processed

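Bulk RNA sequencing of infarcted hearts, 3 WT and 3 Crlf2-/- mice, was analysed. The study isolated poly-A RNA, sequenced paired reads, trimmed them with fastp, aligned them with HISAT2 2.0.5 and counted fragments per gene with featureCounts. The table the authors deposited holds FPKM per gene in each of the 6 libraries, with the length of the gene. The submitters' processing notes list mm10 and also hg38, and the gene positions of all 44 collagen genes equal those of GENCODE M21 (GRCm38). Whether counting used strand is not given in the sources used here, so how fragments on the 22 bases shared by Col4a1 and Col4a2 were counted is not known.

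FPKM times gene length was a whole number of fragments for 100% of nonzero values (tolerance 0.02 of a fragment), which gave 18508646 to 19682428 fragments per library on listed genes and the filter on low genes. Counting error is small for the leading collagens and large near the filter's limit of 10 fragments. A TMM (trimmed mean of M values) factor worked out from the fragments scaled the FPKM, which were tested with limma 3.58.1 (lmFit, eBayes with trend and robust) in R 4.3.3 on log2(FPKM + 0.1), so log2 fold changes of low genes are understated. Benjamini-Hochberg adjustment ran over all 15520 tested genes. Calls needed an adjusted p of 0.05 or less together with a log2 fold change of 0.5 or more in either direction. Replicates are separate mice by label only, and the p-values measure the spread between these libraries. On simulated fragments with 200 genes changed, limma called 67 of 92 genes tested with a true log2 change of 1, 100 of 105 with a change of 2 and 16 of 15384 unchanged genes. No smaller change was simulated, and the simulated libraries had no shifts of their own shared by many genes. These counts therefore do not give the sensitivity for the smaller differences of the collagen genes.

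Named collagen genes were the 6 most abundant fibrillar and other genes, all type IV genes and any with an unadjusted p under 0.05 or without overlap, and of each list the 3 most abundant and those with an unadjusted p under 0.05. Others are named to account for every member. The members, gene lists and marker lists were chosen with earlier results of these data known. A further marker list is not reported here. Ratios of partner chains beyond 6 set in the design, the counts by list and the summed level of all collagen genes with libraries left out, were added after the values had been seen. Alternatives were other scalings, filters and pseudocounts, limma's voom, the replicate number as a block, each library left out, and the length of the longest coding transcript. Same-numbered WT and Crlf2-/- libraries deviated together with r of -0.016, 0.115 and 0.120 across genes, so the numbers were not taken as pairs. Sums, ratios and figures were made in Python 3.11.15 with pandas 2.3.3, numpy 2.4.6 and matplotlib 3.10.9. Columns of other samples numbered 0.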

Additional observations from a re-analysis of the deposited data

How the results depend on the processing

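Of 774 comparisons of a result with an alternative, 721 were taken as the same. These kept direction and side of the threshold, moved by less than the spread between libraries or, for counts of genes, stayed within a set fold of the main count. Such a count could still move, as that of collagen genes with a higher mean did from 20 to between 17 and 27 with a library left out. Collagen genes called stayed at 0 under every alternative, with 0 to 4 at an unadjusted p under 0.05, and 2 (Col5a1 and Col11a1) with voom. Over all genes, 2 were called, 6 with no filter, 1 with at least 10 fragments in every library, 4 with the replicate block and 1 to 14 with a library left out (14 without Crlf2-/- replicate 1). The replicate numbers only name the samples: WT replicate 1 correlated best with Crlf2-/- replicate 2 (0.221), and with the block 0 collagen genes had an unadjusted p under 0.05 and 1 gene of the other lists, the globin gene Hbb-bt, was called (limma adjusted p = 0.0481). The median of the fibrillar genes ranged from 0.098 (without WT replicate 1) to 0.28. Fold changes near 0 changed sign. With FPKM as deposited, Col6a2 was at -0.0017. With a library left out, log2 fold changes ranged from -0.022 to 0.068 for Col3a1, -0.23 to 0.019 for Col4a1, -0.21 to 0.036 for Col4a2, -0.23 to 0.085 for Col4a3, -0.31 to 0.018 for Col4a4, -0.20 to 0.064 for Col4a5, -0.12 to 0.10 for Col6a1, -0.085 to 0.12 for Col6a2, -0.029 to 0.27 for Col14a1, -0.14 to 0.21 for Col15a1 and -0.14 to 0.080 for Col16a1. Without WT replicate 1 the signs of Col3a1, Col6a2, Col14a1 and Col15a1 changed, and without Crlf2-/- replicate 2 those of Col4a1, Col4a2, Col4a4, Col4a5, Col6a1 and Col16a1. The cause was not tested. Precision is limited by 3 mice per genotype, since the 95% intervals of 27 of the 40 tested collagen genes reach past a log2 fold change of 0.5 in one direction or both, and by depth for genes under 1 FPKM.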
